A study of Mus musculus with 2 samples.

Results

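The genes described here were 41 genes of DNA replication and S phase, taken by symbol for their roles in origin licensing, the replication fork, nucleotide synthesis and E2F control. The rule used no measured value, but the list was drawn up with earlier results of these data known. All 41 symbols were found among the 25810 gene symbols of the deposited files. The transcripts were measured by RNA sequencing on a SOLiD sequencer in 2 libraries of mammary epithelial cells (MECs), 1 from wild-type (WT) mice and 1 from Igfbp7-/- mice, both at lactation day 3. Igfbp7 encodes a secreted protein related to the insulin-like growth factor binding proteins, and in the Igfbp7-/- mice the first coding exon was deleted throughout the body, not in the mammary epithelium alone. Both libraries came from inguinal glands of females, and both were labelled as of C57BL/6 background, whereas the methods describe the knockout on a CD1 background. Cells carrying leukocyte, endothelial or erythroid surface markers were depleted from both with magnetic beads. The labels give those markers as CD45, CD35 and Ter119, and the methods name CD31 in place of CD35. The age of the mice and the number of animals behind each library are not given in the sources used here.

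A cell that prepares to copy its genome first loads the MCM helicase onto origins of replication, a step called licensing that needs the origin recognition complex, Cdc6 and Cdt1. In S phase the loaded helicase is activated with the help of the GINS complex and Mcm10, DNA polymerases copy both strands around the sliding clamp PCNA, and enzymes of nucleotide synthesis supply the building blocks. Most of these genes are transcribed through E2F transcription factors late in G1, and in the mammary gland their expression is known to be high while the alveoli expand in pregnancy and lower in secreting epithelium.

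E2F factors bind short GC-rich letters near the start site, and a search for the 4 words TTTCCCGC, TTTGGCGC, TTTGCCGC and TTTCGCGC on both strands found them in the promoters of 15 of the 34 genes of the list that RefSeq's promoter table held (44.1%). Of the 27025 genes in that table, 704 (2.60%) had any of these words in the 300 bases from 250 before to 50 after a start site, and of all 32851 promoters 2.26% did. The 7 genes not in the table were Mcm4, Gmnn, Gins1, Gins2, Gins4, Pole and Ccne2. The following windows of at most 30 bases are shown because they hold the same kind of letters at genes that were far lower in the Igfbp7-/- library (Uhrf1, Mcm5, Cdt1), moderately lower (Mcm6) or not lower (Mcm7, Dnmt1). They are RefSeq sequence of build GRCm38.p6, written 5′ to 3′ on the strand of the gene, with the matching letters in capitals. At Mcm5 and Mcm6 the capitals cover 2 overlapping matches, TTTCGCGC on one strand and TTTGGCGC on the other. For Mcm6, Mcm7 and Dnmt1, 1 of 2 matching windows is shown.
Uhrf1, chr17:56304117-56304146, plus strand: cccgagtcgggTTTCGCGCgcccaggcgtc
Mcm5, chr8:75109347-75109376, plus strand: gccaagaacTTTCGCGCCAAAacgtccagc
Cdt1, chr8:122568036-122568064, plus strand: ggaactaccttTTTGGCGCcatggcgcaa
Mcm6, chr1:128359795-128359824, minus strand: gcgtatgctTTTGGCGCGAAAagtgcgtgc
Mcm7, chr5:138172030-138172059, minus strand: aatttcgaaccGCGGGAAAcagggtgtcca
Dnmt1, chr9:20952824-20952853, minus strand: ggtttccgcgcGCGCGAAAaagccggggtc

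The level of a gene is given as its read count, as RPM, that count relative to library depth and, where genes are compared with each other, as RPM divided by gene length in kilobases (RPKM). The ratio of a gene is log2 of its Igfbp7-/- RPM over its WT RPM after adding 0.1 RPM to each, and a gene was called lower or higher when its level differed by at least 1.5 times. With 1 library per genotype there is no replicate and no test between genotypes, so each ratio compares these libraries and not the genotypes. The interval beside a ratio is an exact (Clopper-Pearson) 95% interval on read pairs, and it covers counting error only. The WT library held 34327854 mapped reads and the Igfbp7-/- library 35016847, of which 82.3% and 72.3% fell on the listed genes, and 1 read was worth 0.0291 and 0.0286 RPM. Igfbp7 itself, the check of the labels, stood at 5224 reads in WT (152 RPM) against 37 in Igfbp7-/- (1.06 RPM), or 0.694% of the WT level, although the counts are not split by exon. Across the gland preparation, 10 markers of luminal and alveolar epithelium ranged from 105 to 53087 RPM in WT and from 95.9 to 19970 RPM in Igfbp7-/-, so the labelled epithelium was present in both libraries.

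Most of the replication genes, but not all, were lower in the Igfbp7-/- library. In a bulk preparation such as this, fewer cells of a type and less RNA per cell cannot be told apart. Of the 41, 38 had a mean of at least 1 RPM over both libraries, and of these 25 (65.8%) were called lower, 1 higher and 12 neither. Across all 13507 genes past the same minimum, 22.2% were called lower and 20.8% higher. With counts scaled to the reads on listed genes, 21 of the 38 were lower and 2 higher, beside 17.6% and 29.8% of all genes. The median ratio of the 38 was -0.997, beside 0.04 for all genes, and over all 41 it was -0.87. For 23 of the 25 the counting interval also lay below equal levels, a criterion met by 21.4% of all genes. The ratio was below 0 for 33 genes and above 0 for 8, although Orc2, Orc6 and Pold1 lay so near 0 that their sign changed with the scaling of the libraries. The ratios ranged from -3.25 for E2f8 to 1.12 for Tk1. Exons of 13 of the 41 genes share bases with another annotated gene, at 78.8% of the exon bases of Fen1 (with Gm10143), 67.3% for Gins2 and at most 17.4% for the others.

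**Figure D1:**
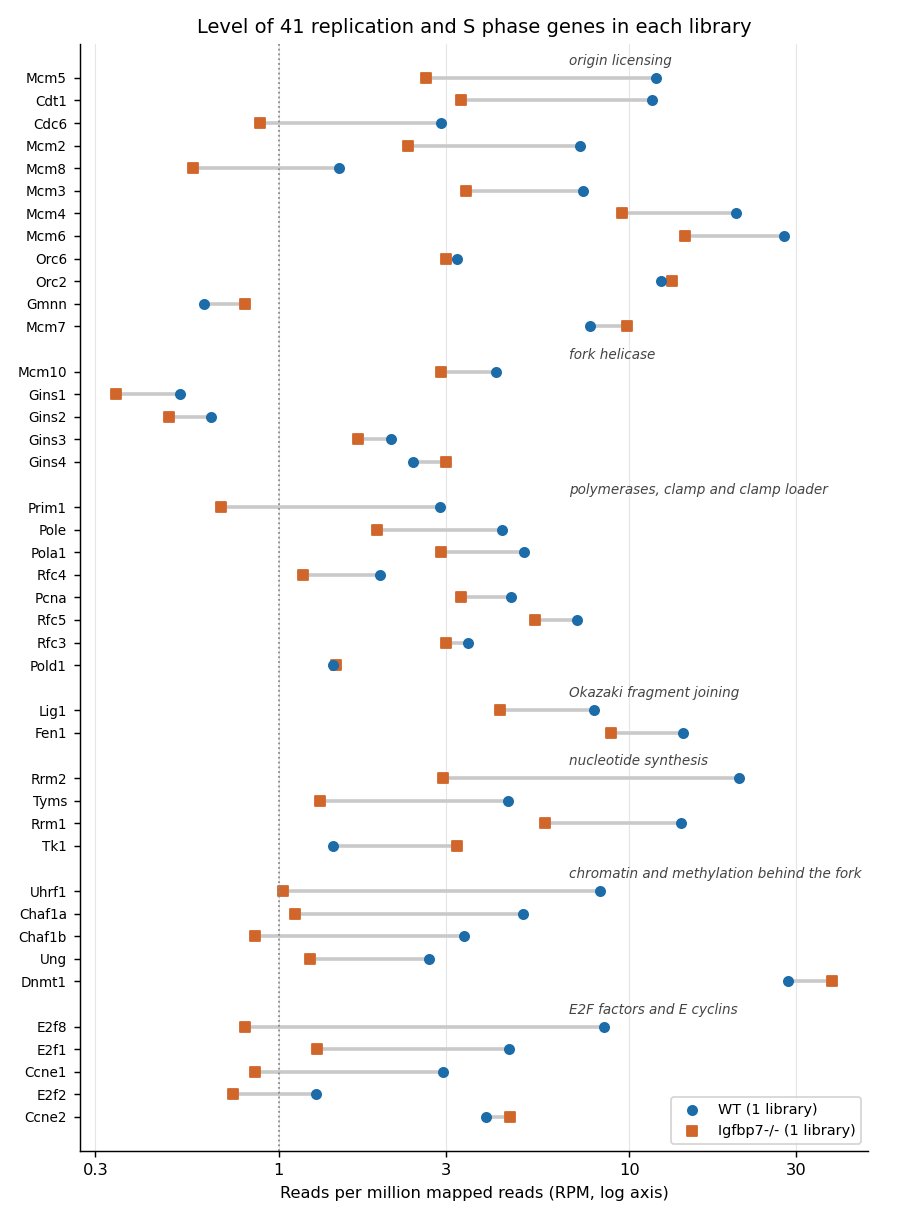
Level of the 41 genes in the WT library (circles) and the Igfbp7-/- library (squares), in RPM on a log axis, with genes grouped by role and sorted by ratio, a grey line joining the values of a gene and a dotted line at 1 RPM. Most squares lie left of their circles, with the widest gaps at E2f8, Uhrf1 and Rrm2, while the square lies to the right at Tk1, Dnmt1, Mcm7, Gins4, Gmnn and Ccne2 and, by little, at Orc2 and Pold1.

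The genes were weakly expressed, and 32 of the 38 had a mean under 10 RPM. In that range 21 of the 32 were called lower, against 26.3% of all 5856 genes of like level, with a median ratio of -1.08. Of the 6 genes at or above 10 RPM, 4 were called lower, against 19.1% of 7651 genes, with a median of -0.80. The 41 genes together took 9831 reads in WT and 5922 in Igfbp7-/-, with a median of 155 and 92 reads per gene. Their summed level was 286 RPM in WT and 169 RPM in Igfbp7-/-, or 59.1% of WT. Dnmt1 alone made up 38.0 RPM of the Igfbp7-/- sum, and without it the sum was 258 RPM in WT and 131 RPM in Igfbp7-/-, or 50.8%.

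In the origin licensing group, in which the MCM relative Mcm8 was counted, 8 of the 11 genes past the minimum were called lower. None was called higher. Of all genes past the same minimum, 22.2% were called lower and 20.8% higher. Cdt1, the loading factor that brings MCM to origins, had 399 reads (11.6 RPM) in WT and 116 (3.31 RPM) in Igfbp7-/-, a ratio of -1.78 (interval -2.26 to -1.39). For Cdc6, the ATPase that works with Cdt1 in loading, 100 reads (2.91 RPM) in WT stood against 31 (0.89 RPM), a ratio of -1.61 (-2.58 to -0.84). Both act on the origin recognition complex, whose listed subunits Orc2 and Orc6 were not called. Orc2 had 424 and 463 reads (12.4 and 13.2 RPM) and Orc6 had 111 and 105 reads (3.23 and 3.00 RPM), and both intervals held equal levels. Of its other subunits, named after their values were seen, Orc1 had 39 and 12 reads, below the minimum, with a ratio of -1.48 (-3.37 to -0.40), and Orc3, Orc4 and Orc5 had ratios of 0.43, -0.10 and 0.22. Geminin, which binds Cdt1 and blocks relicensing, had only 21 reads in WT and 28 in Igfbp7-/- (gene Gmnn, 0.61 and 0.80 RPM), below the minimum, with an interval from -0.93 to 1.60. The RPKM of Gmnn relative to Cdt1 was 0.119 in WT and 0.545 in Igfbp7-/-, a 4.59-fold difference (interval 1.73 to 11.2). Such ratios between partner genes do not depend on how a library is scaled; the pairs were chosen after the values were seen.

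The helicase subunits Mcm2 to Mcm7 form a ring with 1 copy of each, yet their transcripts differed in ratio. Mcm5, on chromosome 8 (77633427 to 77652338, build mm9), was the lowest, with 410 reads (11.9 RPM) in WT and 92 (2.63 RPM) in Igfbp7-/-, a ratio of -2.14 (-2.68 to -1.72). Mcm2 followed with 248 and 82 reads (7.22 and 2.34 RPM) and a ratio of -1.58 (-2.17 to -1.11). Mcm3, Mcm4 and Mcm6 lay close together. Mcm3 had 254 and 120 reads (ratio -1.09), Mcm4 had 691 and 333 (-1.07) and Mcm6, the most abundant, had 947 and 506 (-0.93), and all intervals lay below 0. Mcm7 was the exception, with 266 reads (7.75 RPM) in WT and 345 (9.85 RPM) in Igfbp7-/-, a ratio of 0.34 (0.02 to 0.69) that did not reach 1.5 times under any scaling. Per length, Mcm7 made up 12.2% of the summed RPKM of the 6 subunits in WT and 28.6% in Igfbp7-/-, whereas Mcm5 made up 13.1% and 5.34%. The RPKM of Mcm7 relative to Mcm5 was 0.93 in WT and 5.36 in Igfbp7-/-, a 5.78-fold difference (3.86 to 8.77), and relative to each of the other 4 subunits it differed by 2.43-fold to 3.92-fold. Mcm4 relative to Mcm6 differed by 0.90-fold, with an interval from 0.71 to 1.16 that held equality. Exons of Mcm7, on chromosome 5 (138605811 to 138613650, mm9), overlap Ap4m1 and Cops6 on the opposite strand and the microRNA genes Mir25 and Mir93 on the same strand. Ap4m1 had 4.84 RPM in WT against 8.08 RPM in Igfbp7-/-, and shares 7.25% of the exon bases of Mcm7. The methods describe a library preparation meant to keep the strand, but whether counting used it is not given in the sources used here. The part of reads from overlapping genes in the value of Mcm7 was not tested. Mcm8, a relative of the helicase with roles in recombination repair, had 51 reads in WT and 20 in Igfbp7-/-, a ratio of -1.24 (-2.62 to -0.31).

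**Figure D2:**
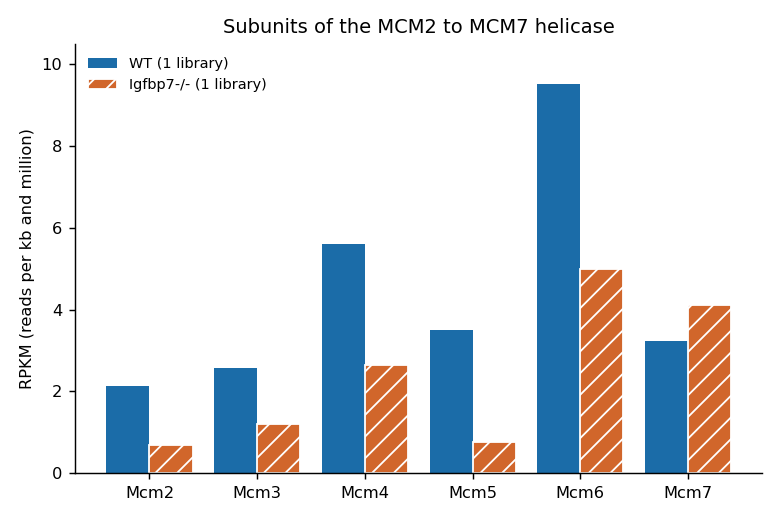
RPKM of the 6 subunits of the MCM2 to MCM7 helicase in the WT library (plain bars) and the Igfbp7-/- library (hatched bars), 1 library each and so without error bars. The hatched bar is the shorter for Mcm2 to Mcm6 and the taller for Mcm7, where it stands at 4.11 RPKM beside 3.23 in WT.

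None of the 5 listed genes that help activate the loaded helicase, Mcm10 and the 4 GINS genes, was called. Mcm10, which binds the helicase at firing and helps recruit the primase polymerase, had 143 reads (4.17 RPM) in WT and 102 (2.91 RPM) in Igfbp7-/-, a ratio of -0.50 (-1.07 to 0.01). It was called lower only when the library totals were taken without the 20 most abundant genes, at -0.64. The 4 GINS subunits, the helicase's partners with Cdc45, together had 195 reads in WT and 193 in Igfbp7-/-, or 5.68 and 5.51 RPM. Cdc45 itself, of the further list described below and named here after its value was seen, was called lower, with 55 and 15 reads and a ratio of -1.69 (-3.18 to -0.66). Dbf4, the activating subunit of the kinase that triggers firing, came from the same list and was also named after its value was seen. It had 248 and 166 reads and a ratio of -0.60 (-1.03 to -0.20). Cdc7, the kinase itself, likewise from that list and named after its value was seen, was not called. Its 188 and 260 reads gave a ratio of 0.43 (0.05 to 0.84). Gins3 had 72 and 59 reads and Gins4 had 83 and 105, with ratios of -0.30 and 0.30. Gins1 (18 and 12 reads) and Gins2 (22 and 17) were below the minimum, and their intervals spanned from -2.39 to 1.04 and from -1.77 to 1.09, so a difference the size of that of Mcm5 was not excluded by counting error for Gins1 at this depth. For Gins2, 67.3% of the exon bases overlap Gse1 on the opposite strand, itself at 34.5 RPM in WT against 98.5 RPM in Igfbp7-/-.

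Of the 8 polymerase, clamp and clamp loader genes, 4 were called lower and none higher, beside 22.2% and 20.8% of all genes. Prim1, the catalytic subunit of the primase that lays RNA primers, had 99 reads (2.88 RPM) in WT and 24 (0.69 RPM) in Igfbp7-/-, a ratio of -1.93 (-3.13 to -1.16). Pola1, the polymerase that extends those primers, differed less, with 172 and 102 reads and a ratio of -0.76 (-1.31 to -0.27). Pole, the catalytic subunit of the leading strand polymerase, had 149 and 67 reads and a ratio of -1.14 (-1.80 to -0.57). Pold1, its lagging strand counterpart, was level, with 49 and 51 reads and a ratio of 0.03 (-0.82 to 0.88). Other subunits of that polymerase are in the further list described below and were named after their values were seen. Pold2 was called lower (297 and 171 reads, -0.81, -1.22 to -0.43), and Pold3 (-0.07) and Pold4 (-0.13) were not called. The clamp and the listed subunits of its loader sat between the values of Prim1 and Pold1. Pcna had 158 and 116 reads (4.60 and 3.31 RPM, ratio -0.46, interval -0.99 to 0.03), and it passed 1.5 times only with totals taken without the 20 most abundant genes (-0.60). The listed loader subunits Rfc3 (ratio -0.20), Rfc5 (-0.38) and Rfc4 (-0.69) all had intervals that held equal levels. Of the loader subunits in the further list, also named after their values were seen, Rfc2 was called lower (259 and 153 reads, -0.77, -1.21 to -0.37). Rfc1 was not called (0.07). Rfc4 was called lower from 67 and 41 reads, but not with a pseudocount of 1 RPM (-0.44), and 12.6% of its exon bases overlap Eif4a2 on the opposite strand (221 and 372 RPM). Joining of Okazaki fragments was represented by Fen1, the flap endonuclease, and Lig1, the ligase that seals the nicks. Fen1 had 488 and 310 reads (14.2 and 8.85 RPM, ratio -0.68, -0.98 to -0.39) and Lig1 had 272 and 150 (7.92 and 4.28 RPM, -0.87, -1.31 to -0.47). Fen1, Pola1 and Rfc4 were no longer called lower when counts were scaled to the reads on listed genes, with ratios of -0.49, -0.58 and -0.52.

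**Figure D3:**
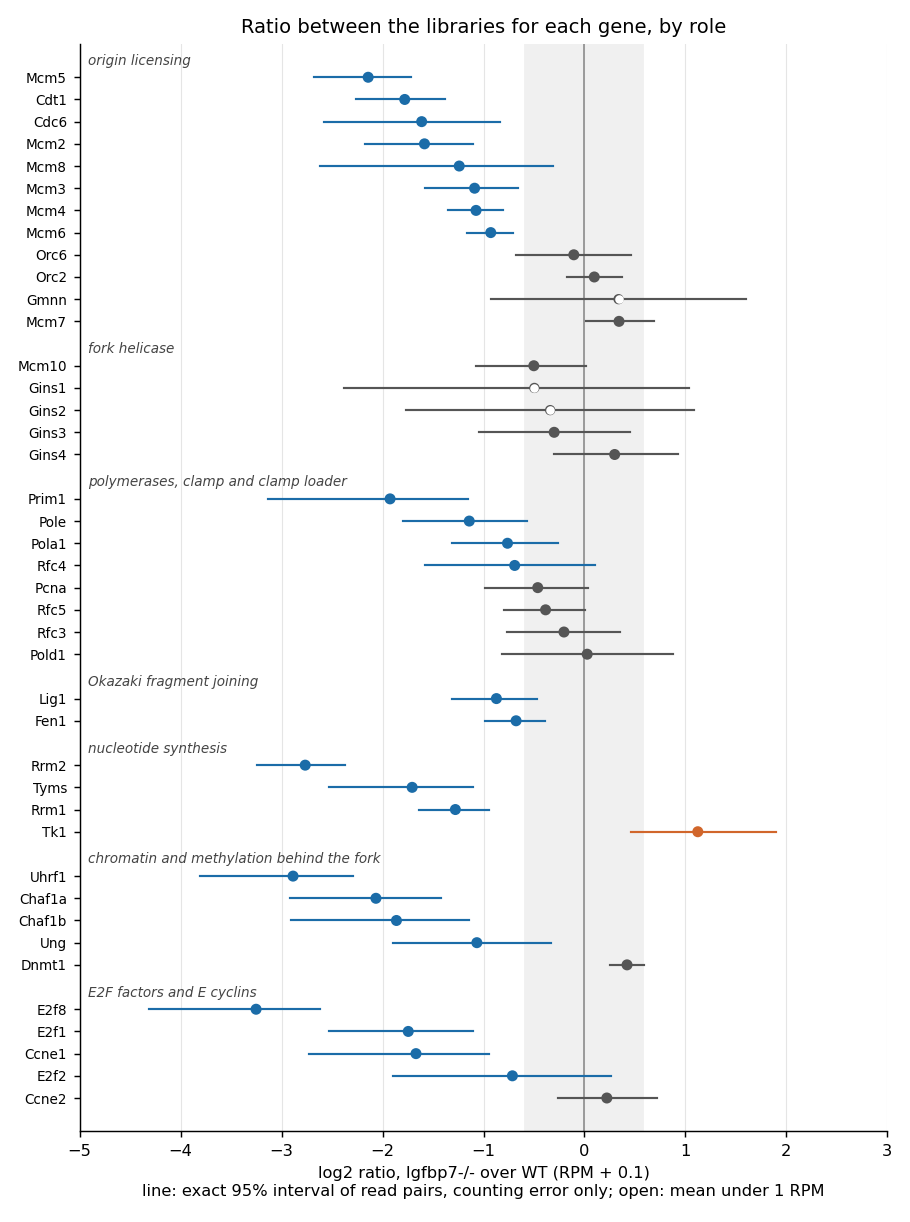
Log2 ratio of Igfbp7-/- over WT for each of the 41 genes by role, where the horizontal lines are exact 95% intervals on read pairs that cover counting error only, the grey band marks less than 1.5 times, blue, orange and grey points are called lower, higher or neither, and open points had a mean under 1 RPM. The blue points reach down to -3.25 at E2f8, the fork helicase group stays inside the band, and Tk1 at 1.12 is the only orange point.

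Summed, the nucleotide synthesis genes had the lowest share of their WT level among the role groups, from 40.6 RPM in WT to 13.2 RPM in Igfbp7-/-, or 32.6%. Rrm2 carried most of it. This gene encodes the small subunit of ribonucleotide reductase, made in S phase and limiting for deoxynucleotide supply, and it had 707 reads (20.6 RPM) in WT and 103 (2.94 RPM) in Igfbp7-/-, a ratio of -2.77 (-3.24 to -2.37). Rrm1, the large subunit, had 483 and 201 reads (14.1 and 5.74 RPM) and a ratio of -1.28 (-1.64 to -0.95). The RPKM of Rrm2 relative to Rrm1 was therefore 2.66 in WT and 0.93 in Igfbp7-/-, a 0.350-fold difference (0.238 to 0.518). Tyms, the thymidylate synthase that makes dTMP anew, had 155 and 46 reads and a ratio of -1.71 (-2.53 to -1.10). Tk1, the cytosolic kinase that salvages thymidine, went the other way, with 49 reads (1.43 RPM) in WT and 113 (3.23 RPM) in Igfbp7-/-, a ratio of 1.12 (0.46 to 1.90). Tk1 was the only gene of the list called higher, and it was so under every scaling tried. It lies on chromosome 11 (117676840 to 117687406, mm9), and 1.60% of its exon bases overlap Afmid on the opposite strand, itself at 3.00 RPM in WT against 5.77 RPM in the Igfbp7-/- library. The RPKM of Tk1 relative to Tyms was 0.87 in WT and 6.73 in Igfbp7-/-, a 7.77-fold difference (3.80 to 15.8).

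Genes that restore chromatin and DNA methylation behind the fork differed among themselves. Uhrf1, which recognises hemimethylated DNA and recruits the maintenance methyltransferase, had 283 reads (8.24 RPM) in WT and 36 (1.03 RPM) in Igfbp7-/-, a ratio of -2.89 (-3.80 to -2.30). The methyltransferase itself, Dnmt1, had 973 reads (28.3 RPM) in WT and 1331 (38.0 RPM) in Igfbp7-/-, a ratio of 0.42 (0.25 to 0.59). Dnmt1 passed 1.5 times only when counts were scaled to the reads on listed genes, at 0.61. Per length, Dnmt1 stood at 2.34 times Uhrf1 in WT and 25.1 times in Igfbp7-/-, a 10.8-fold difference (6.47 to 19.0). Chaf1a and Chaf1b, subunits of the chromatin assembly factor that deposits histones on new DNA, were lower by a like amount. Chaf1a had 171 and 39 reads (ratio -2.07, -2.91 to -1.42), Chaf1b had 116 and 30 (-1.86, -2.91 to -1.14), and their RPKM ratio to each other differed by 1.13-fold with an interval from 0.49 to 2.50. Ung, counted in this group though it is the glycosylase that removes uracil from DNA, had 92 and 43 reads and a ratio of -1.07 (-1.90 to -0.33).

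Of the 5 genes for E2F factors and E cyclins, 4 were called lower, beside 22.2% of all genes. E2f8, an atypical E2F that represses E2F targets later in the cycle, had the lowest ratio of the list. It lies on chromosome 7 (56121799 to 56136966, mm9) and had 291 reads (8.48 RPM) in WT and 28 (0.80 RPM) in Igfbp7-/-, which was 9.43% of WT, a ratio of -3.25 (-4.32 to -2.62). E2f1, an activator of S phase genes, had 156 and 45 reads (4.54 and 1.29 RPM) and a ratio of -1.75 (-2.53 to -1.10). E2f2, another activator, was too weak for a firm value, with 44 and 26 reads, a ratio of -0.71 and an interval from -1.90 to 0.27, and it was not called lower on listed reads (-0.55), from RPKM (-0.53) or with a pseudocount of 1 RPM (-0.39). The E cyclins activate Cdk2 at entry into S phase, and they differed from each other. Ccne1 had 101 and 30 reads (ratio -1.67, -2.73 to -0.94), whereas Ccne2 had 134 and 160 (0.22, -0.26 to 0.72). For Ccne2, 17.4% of the exon bases overlap Ints8 on the opposite strand, itself at 15.82 RPM in WT against 21.99 RPM in Igfbp7-/-. The part of such reads in the value of Ccne2 was not tested. The RPKM of Ccne2 relative to Ccne1 was 0.89 in WT and 3.57 in Igfbp7-/-, a 4.02-fold difference (2.02 to 8.45).

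The order of the genes by level per length was rearranged between the libraries. In WT the most abundant were Mcm6 at 9.51 RPKM, Rrm2 at 9.37, Fen1 at 6.42, Mcm4 at 5.61 and Dnmt1 at 5.38. In Igfbp7-/- they were Dnmt1 at 7.21, Mcm6 at 4.98, Mcm7 at 4.11, then Fen1 and, at 3.87, Orc2. Rrm2 went from rank 2 of 41 to rank 17, E2f8 from 17 to 38 and Uhrf1 from 16 to 36. Tk1 moved in the other direction, from rank 31 to rank 10.

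Genes with and without an E2F word in the promoter both included many that were lower. Of the 15 genes with an E2F word, 10 were called lower and 5 neither, with a median ratio of -0.87. Of the 19 genes in the promoter table without such a word, 13 were called lower, 1 higher and 5 neither, with a median of -1.28, and this set included E2f8 and Rrm2. Beside both sets, 22.2% of all genes past the minimum were called lower and 20.8% higher. Mcm7 and Dnmt1 both held matches, as their windows above show. The letters CCAAT, bound by NF-Y, were found on either strand at 61.8% of the 34 genes and at 41.1% of all genes. TTTGAA, the core of the cell cycle homology region (CHR) of genes of late phases, was found at 17.6% of the 34 and at 20.2% of all genes. A match describes letters in these windows and shows no binding.

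**Figure D4:**
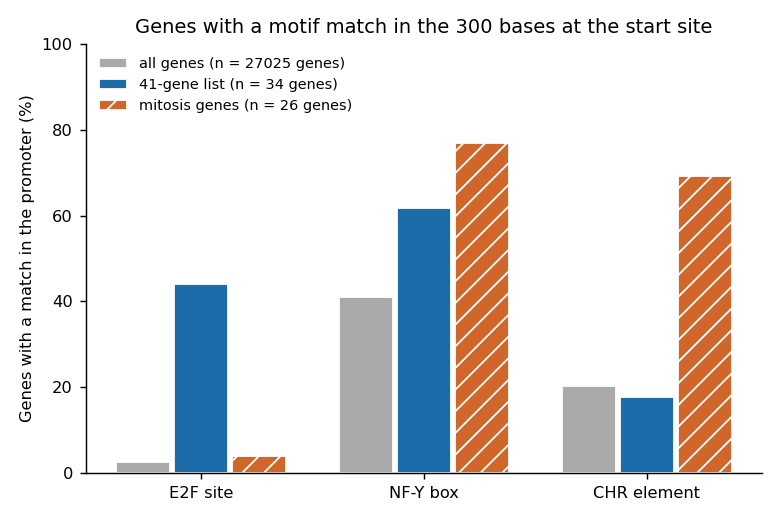
Percent of genes with a match on either strand in the 300 bases at a start site, for the E2F words, the NF-Y box and the CHR element, in all genes of the promoter table (grey), the listed replication genes in it (blue) and mitosis genes (hatched). The E2F bar is tallest for the replication genes at 44.1%, and the CHR bar is tallest for the mitosis genes at 69.2%.

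A further list held 44 other genes of the same machinery, of which 43 were found. Of the 35 past the minimum, 12 (34.3%) were called lower and 1 (2.86%) higher, with a median ratio of -0.17. Across all genes these shares were 22.2% and 20.8%. With counts scaled to the reads on listed genes, 10 (28.6%) were lower and 6 (17.1%) higher, with a median of 0.01. The shares of all genes were then 17.6% and 29.8%. The lowest were Asf1b, a histone chaperone with 76 reads in WT and 2 in Igfbp7-/-, Clspn, a checkpoint mediator at the fork (134 and 20 reads, ratio -2.58), and Pola2, the regulatory partner of Pola1 (211 and 54 reads, -1.93). Pole3, a small subunit of the Pole complex, was the highest, at 0.66 from 79 and 129 reads, and it was not called with a pseudocount of 1 RPM or without the 20 most abundant genes. Of 13 further E2F and pocket protein genes, 3 (23.1%) were called lower and 1 (7.69%) higher, beside 22.2% and 20.8% of all genes. The share called lower was thus near that of all genes. The pocket proteins Rbl1 and Rb1, which restrain E2F, differed in direction. Rbl1 (p107) had 255 and 48 reads and a ratio of -2.36 (-3.14 to -1.81), and Rb1 had 760 and 1795 reads and a ratio of 1.21 (1.04 to 1.39). Rbl2, a further pocket protein named after its value was seen, was not called (458 and 400 reads, -0.22, -0.50 to 0.06). Skp2, which targets cell cycle inhibitors for destruction, had a ratio of -1.20, and Cdk2, the kinase of the E cyclins, of -0.73.

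Genes of mitosis, the next stage of the cycle, are given for comparison. Of the 28 past the minimum in a list of 32, 26 were called lower and none higher, with a median of -2.29. Of all genes, 22.2% were called lower and 20.8% higher. The summed level of all 32 mitosis genes was 250 RPM in WT against 49.6 RPM in Igfbp7-/- (19.8%). The lowest were Ccna2, the cyclin of S phase and mitotic entry (338 and 14 reads, ratio -4.31), Cdc20 (140 and 6 reads, -3.94) and Cenpe (263 and 20 reads, -3.53). Anln was the highest, at -0.23. Ccnb1 with 33 reads in WT and Nuf2 with 36 were at 0 reads in Igfbp7-/-, and both were below the minimum. The upper ends of their counting intervals were -2.07 for Ccnb1 and -2.17 for Nuf2. The difference between the lists was not tested.

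**Figure D5:**
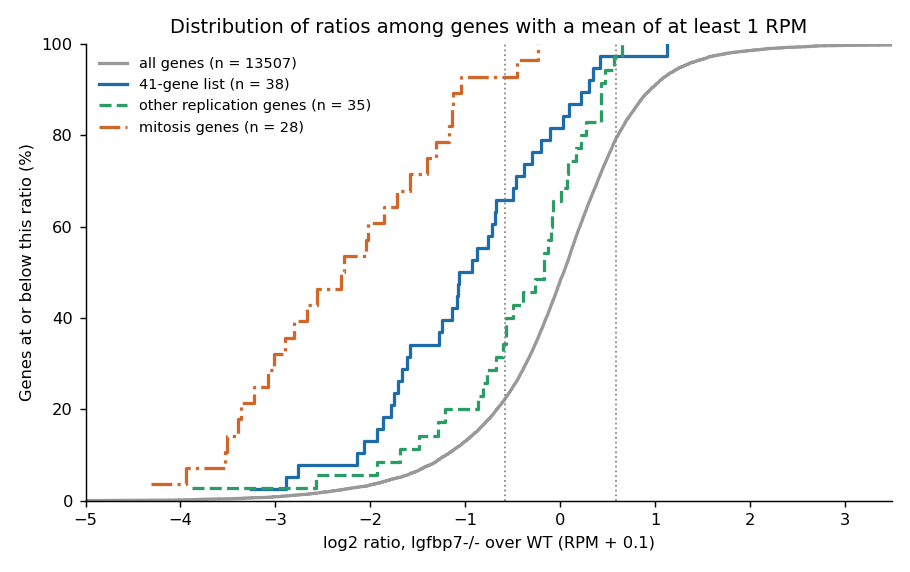
Percent of genes at or below each log2 ratio of Igfbp7-/- over WT, for all 13507 genes with a mean of at least 1 RPM (grey), 38 replication and S phase genes (blue), 35 other replication genes (green, dashed) and 28 mitosis genes (orange, dash-dotted), with dotted lines at 1.5 times. The curves cross the left dotted line at 22.2% for all genes, 65.8% for the listed replication genes, 34.3% for the other replication genes and 92.9% for the mitosis genes.

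Markers of the cell types targeted by the depletion were still read in both libraries, and markers of several cell types differed between them. Calls are counted among the markers past the minimum, whereas sums take in all markers found, also those below it. Leukocyte markers were called lower for 10 of 13 and higher for none, with a summed level of 233 RPM in WT against 109 RPM in Igfbp7-/-. Ptprc, which encodes CD45, a target of the depletion, had 43.5 and 18.1 RPM. Endothelial markers were lower for 7 of 8, with sums of 1334 and 429 RPM, and Pecam1, which encodes CD31, had 323 and 88.9 RPM. Myoepithelial markers were lower for 7 of 8 (3586 and 1109 RPM) and fibroblast markers for 4 of 8 with 1 higher (9136 and 4660 RPM). Adipocyte markers were lower for 3 of 4 with 1 higher (29.4 and 20.6 RPM), and none of the 4 erythroid markers past the minimum was called (1066 and 1244 RPM). Luminal and alveolar markers were lower for 4 of 10 and higher for 3 (88135 and 34785 RPM), with a median ratio of -0.07. The 4 lower were the milk protein genes Csn2 (-1.41), Csn3 (-1.38), Wap (-1.83) and Lalba (-1.08). Csn2 alone had 53087 and 19970 RPM of the sums. The 3 higher were the keratins Krt8 (1.56), Krt18 (2.23) and Krt19 (1.47). Epcam (0.51), Cdh1 (0.38) and Elf5 (-0.52) were not called. Across all genes, 22.2% were called lower and 20.8% higher. The part of these cell types in the ratios of the replication genes was not tested.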

How the data were processed

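After depletion of lineage positive cells, poly(A) RNA of the MECs was sequenced as paired ends, and the authors mapped it in GeneSifter (a Bowtie pipeline) with up to 3 mismatches. The submitters' processing notes name Bowtie 0.12.3, SAMtools 0.1.15 and mm9, while the methods name a human build. The count of each gene was deposited unscaled. The RPM deposited with it is the count over all mapped reads of the library, so reads outside the listed genes lower it, and the deposited RPKM is that RPM over a gene length that was the same in both files. Each file had 25860 rows, of which the 50 without a symbol (0.0408% and 0.0484% of mapped reads) were left out.

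Groups came from the sample labels. Ratios used RPM plus 0.1, genes with a mean of at least 1 RPM, and a fold of 1.5. Intervals were computed on counts divided by 2, since 75.8% and 74.1% of counts from 1 to 20 were even, and they leave out the pseudocount. Of the counts of the 41 genes, most of them larger, only 43.9% in WT and 51.2% in Igfbp7-/- were even. Division by 2 gives wider intervals than single reads would. The members and lists were chosen with earlier results of these data known. Named were every member, Igfbp7, Ptprc, Pecam1, and of each further list the 3 lowest and the highest ratio among genes past the minimum. The partner pairs, overlapping genes, Cdc45, Dbf4, Cdc7, Orc1, Orc3, Orc4, Orc5, Rbl2, Ccnb1 and Nuf2 were chosen after values were seen. So were Pold2, Pold3, Pold4, Rfc1 and Rfc2. The luminal and alveolar markers were also named singly only after their values were seen. Exon overlaps and gene positions came from GENCODE vM1 on NCBIM37 (mm9) and promoters from RefSeq (GRCm38.p6), and no position was converted. Alternatives were pseudocounts of 1 and 0.01 RPM, other minimums, listed reads, edgeR 4.0.16 TMM and DESeq2 1.42.0 size factors (R 4.3.3), totals without the 20 most abundant genes, RPKM, a fold of 2 and the interval as a further criterion. Scripts were tested on simulated read pairs drawn from the counting model that the intervals assume. That test does not cover variation between animals or preparations. Python 3.11.15, numpy 2.4.6, pandas 2.3.3, scipy 1.17.1 and matplotlib 3.10.9 were used.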

Additional observations from a re-analysis of the deposited data

How the results depend on the processing

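Of the 38 genes past the minimum, 21 to 27 were called lower under every pseudocount, scaling and interval setting tried. The share of all genes called lower under these settings ran from 17.6% to 26.7%. At a fold of 2, 19 of the 38 (50%) were lower, beside 13.0% of all genes. The median was -0.997, and under the alternatives it ranged from -1.14 to -0.74. With a minimum mean of 10 RPM, 4 of 6 listed genes were lower and 0 higher. At that minimum 0 of 8 other replication genes, 2 of 2 mitosis genes and 1458 of 7651 genes (19.1%) were lower. With no minimum, 25 of the 41 listed genes (61.0%) and 5279 of 20151 genes with any read (26.2%) were lower. At a fold of 2, 7 of 35 other replication genes (20%) and 1758 of 13507 genes (13.0%) were lower. Scaling to listed reads shifted the median of all genes by 0.18, cut the share of lower among all called genes from 51.6% to 37.1%, and gave 2 higher genes of the list (Tk1 and Dnmt1); totals without the 20 most abundant genes shifted it by -0.14, with 62.6% lower. Without the genes whose exons overlap another gene, chosen after seeing the data, 18 of 26 were lower and 0 higher. The shares of all genes were then 22.2% and 20.8%. Of 266 recomputed ratios, 263 stayed within their counting interval; the others were Uhrf1 (-2.19) and E2f8 (-2.40) with a pseudocount of 1 RPM and Dnmt1 (0.61) on listed reads. No paired analysis was possible because each genotype had 1 library, and for that reason no library could be left out. At the depth of Gmnn, E2f2 and the 4 GINS genes, the counting intervals held both directions.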
